A study of Homo sapiens with 6 samples.

Results

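The regions described here are H3K9me3 peaks on the centromere side and short arms of the 5 acrocentric chromosomes of human BJ fibroblasts. A peak was a member when its midpoint lay below 18.5 Mb on chromosome 13, 18.8 Mb on chromosome 14, 20 Mb on chromosome 15, 13 Mb on chromosome 21 or 15.2 Mb on chromosome 22 of the hg38 build. These windows held 2147 peaks of the PURPL guide 1 list, 1912 of the PURPL guide 2 list and 2513 of the control guide list, or 6572 of the 50558 peaks in the 3 lists. H3K9me3, a trimethyl mark on histone H3 lysine 9, was measured by chromatin immunoprecipitation and sequencing (ChIP-seq) with an input library from the same cells. BJ is an established skin fibroblast line of human origin. CRISPR interference, which uses a guide RNA to direct a repressor to a chosen gene, was applied with guide 1 against PURPL, guide 2 against PURPL, or a control guide. PURPL is a gene for a long non-coding RNA. Each of these 3 groups had 1 H3K9me3 library and 1 input library. The labels give no clone, passage or culture, and the form of the repressor is not given in the sources used here.

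Acrocentric chromosomes have their centromere near one end. Their short arms carry the tandem genes for ribosomal RNA, around which the nucleolus forms, between long blocks of satellite repeats. Human centromeres are built on alpha satellite, a short unit repeated head to tail, and the flanking satellite is packed as constitutive heterochromatin, where H3K9me3 is deposited by SUV39 enzymes and read by HP1 proteins. Parts of these arms are near-copies of one another on different chromosomes, so a short read from them may have several equal places in the genome.

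Sequence was at hand for annotated genes only, credited here to RefSeq (GRCh38.p14). 42 of the 190 annotated genes in the windows had a promoter entry, and they gave 51 promoters of 250 bases before to 50 bases after a start. 1 of these 51 held a peak of any list. It belongs to LOC105372733, a long non-coding RNA gene on the short arm of chromosome 21, at chr21:10056300-10056599 on the minus strand. It is shown because it is the 1 promoter that a peak reached. The capitals mark the 204 bases under a guide 2 peak at 10056396 to 10056849, with a score of 18.
LOC105372733 promoter: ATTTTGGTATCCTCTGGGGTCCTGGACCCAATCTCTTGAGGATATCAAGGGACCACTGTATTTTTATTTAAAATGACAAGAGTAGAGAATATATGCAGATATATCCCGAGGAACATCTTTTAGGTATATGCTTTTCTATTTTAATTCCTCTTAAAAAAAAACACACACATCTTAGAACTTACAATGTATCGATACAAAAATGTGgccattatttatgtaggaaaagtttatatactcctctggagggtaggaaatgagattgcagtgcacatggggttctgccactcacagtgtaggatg
The microRNA genes MIR6724-2 (chromosome 21, 8249505 to 8249596, plus strand) and MIR6724-4 (chromosome 21, 8432530 to 8432621, plus strand) lie among the ribosomal RNA genes of the short arm. They are shown because their hairpins have the same letters at both places, which gives 1 distinct sequence for 2 copies. MIR6724-1 and MIR6724-3 are annotated in the same part of the arm and are not printed here. In the mature sequence the capitals mark the seed, bases 2 to 8.
MIR6724-2 and MIR6724-4 hairpin: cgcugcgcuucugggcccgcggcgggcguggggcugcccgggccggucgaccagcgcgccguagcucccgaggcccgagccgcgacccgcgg
hsa-miR-6724-5p: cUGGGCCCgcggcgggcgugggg
The nearest peaks to the MIR6724-2 hairpin lay 2211 bp away with guide 1, 386 bp with guide 2 and 3577 bp in the control. For MIR6724-4 these distances were 2731 bp with guide 1, 2770 bp with guide 2 and 3190 bp in the control.

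On chromosomes 1 to 22 and X the lists held 14087 peaks with guide 1, 11721 with guide 2 and 22627 in the control. The length under peaks was 52.4% of control with guide 1 and 40.3% with guide 2. PURPL itself (chromosome 5, 27472292 to 27496401) had 0 bases under peaks in all 3 lists, so the mark over the targeted gene gave no check of the labels. The depth of the libraries is unknown, and no value is corrected for it. With 1 library per group no difference has a replicate check. Intervals are at 95% and cover counting error only, Wilson intervals for shares of peaks and, for peak numbers relative to control, the Wilson interval of one list's share of both lists' peaks turned into a ratio. They treat peaks as independent, which peaks at the parallel positions described below are not. The intervals may therefore be too narrow even for counting error.

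The windows kept their peaks more in number than in length. The peak number was 85.4% of control with guide 1 (80.7 to 90.5) and 76.1% with guide 2 (71.7 to 80.8). The length under peaks was 2.41 Mb with guide 1, 2.04 Mb with guide 2 and 4.00 Mb in the control, which left 60.2% with guide 1 and 50.9% with guide 2. Single peaks were narrower in both guide lists, with a median width of 839 bp with guide 1, 822.5 bp with guide 2 and 1116 bp in the control. Peaks of at least 5 kb numbered 17 with guide 1, 9 with guide 2 and 91 in the control. The peak number turned the other way when peaks within 5000 bp were merged, to 134% of control with guide 1 and 128% with guide 2. Members made up 15.2% of the guide 1 list (14.7 to 15.8), 16.3% of the guide 2 list (15.7 to 17.0) and 11.1% of the control list (10.7 to 11.5). The gene-free stretches of other chromosomes, set out below, went the same way before merging. They held 57.4% of guide 1 peaks, 66.6% of guide 2 peaks and 42.9% of control peaks. Peak number was 83.4% of control with guide 1 and 80.5% with guide 2. Length was 63.2% with guide 1 and 55.5% with guide 2. Median width was 919 bp with guide 1, 867 bp with guide 2 and 1108 bp in the control. Peaks of at least 5 kb numbered 211 with guide 1, 158 with guide 2 and 598 in the control.

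Each window had less length under peaks with either guide than in the control. On chromosome 13 the length was 411 kb with guide 1, 355 kb with guide 2 and 658 kb in the control. On chromosome 14 it was 411 kb with guide 1, 352 kb with guide 2 and 676 kb in the control. Chromosome 15 had 566 kb with guide 1, 535 kb with guide 2 and 892 kb in the control. The largest difference was on chromosome 21, where the share of control was 56.8% with guide 1 and 43.6% with guide 2, and the smallest on chromosome 15, at 63.5% with guide 1 and 60.0% with guide 2. Peak numbers were below control on 4 of the chromosomes, as on chromosome 21 with 530 peaks with guide 1, 441 with guide 2 and 704 in the control. Chromosome 15 went the other way, with 373 peaks with guide 1, 353 with guide 2 and 321 in the control. That is 116% of control with guide 1 (100.1 to 134.9) and 110% with guide 2 (94.6 to 127.9), where the interval includes 100%.

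**Figure D1:**
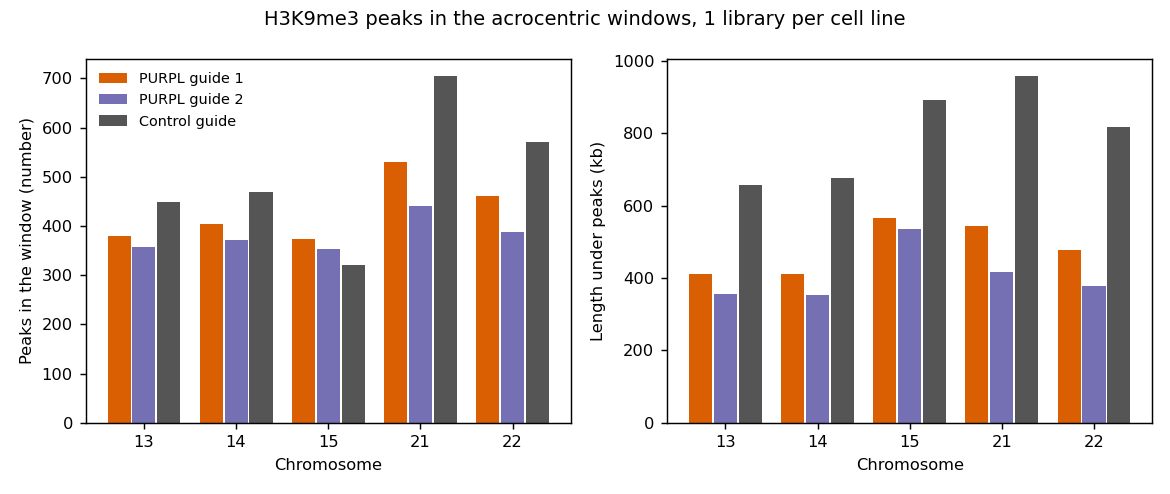
Peak number and length under H3K9me3 peaks (kb) in the window of each acrocentric chromosome, for guide 1, guide 2 and the control guide, with 1 bar per library and no error bars because each group has 1 library. Length is below control in each window, while on chromosome 15 the peak number is above control, at 373 with guide 1 and 353 with guide 2, against 321 in the control.

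The window limits lay in stretches with few peaks. On chromosome 15 the last control peak inside ended 211 kb before the limit, and the next one began 5027 kb beyond it. The closest neighbours were on chromosome 21, with a control peak at 12995042 to 12995900 just inside, and on chromosome 22, with a control peak at 15204522 to 15204823 just outside.

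Most control members had a counterpart in each guide list, about as often as in the gene-free stretches of other chromosomes and more often than in the whole list. A guide 1 peak overlapped 65.7% of the control members by at least 1 bp (63.8 to 67.5), against 42.8% of all control peaks. A guide 2 peak overlapped 60.1% of them (58.2 to 62.0), against 36.2% of all control peaks. In the gene-free stretches of other chromosomes these shares were 63.8% with guide 1 and 59.5% with guide 2. These comparisons share the control library. Few guide members lacked a control peak: 12.5% with guide 1, against 20.8% of all guide 1 peaks, and 9.78% with guide 2, against 17.1% of all guide 2 peaks. In the gene-free stretches elsewhere 12.2% of guide 1 peaks and 12.6% of guide 2 peaks lacked one. Between the guides, 68.8% of guide 1 members overlapped a guide 2 peak, against 55.0% of all guide 1 peaks, and 78.5% of guide 2 members overlapped a guide 1 peak, against 68.6% of all guide 2 peaks.

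Control members with higher scores had a counterpart more often. This score was set by the authors and was used only to rank peaks within a list. In the lowest of 4 score groups of the control members (scores 10 to 21), 33.9% were overlapped by a guide 1 peak and 26.2% by a guide 2 peak. In the highest group (scores 53 to 367), 86.6% were overlapped by a guide 1 peak and 83.3% by a guide 2 peak. The windows as a whole held relatively high scores in each list. The median member stood at percentile 70.1 of the guide 1 list, 68.4 of the guide 2 list and 77.8 of the control list. On chromosome 15 it stood lower, at 50.3 with guide 1, 50.1 with guide 2 and 69.8 in the control. In the gene-free stretches of other chromosomes the median peak stood at 60.1 with guide 1, 54.2 with guide 2 and 69.8 in the control.

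The windows fell into 3 zones that differed in how much of the mark the guide lists held. The first is a stretch common to chromosomes 13, 14, 21 and 22, described in the next paragraph, with 1522 peaks with guide 1, 1436 with guide 2 and 1770 in the control. It held 61.5% of the control length with guide 1 and 53.7% with guide 2. The second, the gene-free stretch of chromosome 15, held 63.5% with guide 1 and 60.0% with guide 2. The third, the short arms and remaining flanks, held less: 220 kb with guide 1, 84.7 kb with guide 2 and 469 kb in the control, which left 46.9% with guide 1 and 18.05% with guide 2. The 22 gene-free stretches of at least 1 Mb on the other chromosomes, 106 Mb in all, stood at 63.2% with guide 1 and 55.5% with guide 2, close to the shares of the centromere zones. All other peaks stood at 33.4% with guide 1 and 13.9% with guide 2. None of these differences between zones has a test, since each zone comes from the same 3 libraries.

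**Figure D2:**
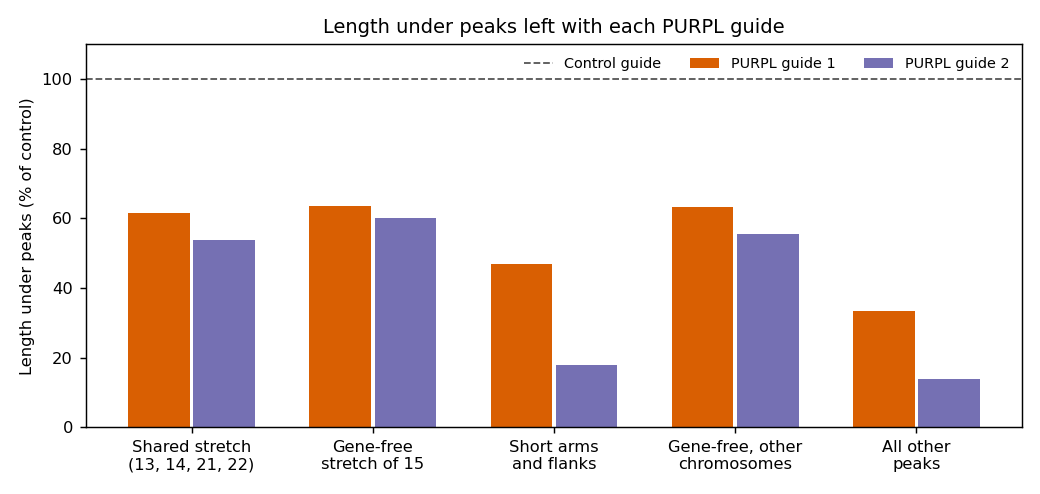
Length under H3K9me3 peaks with guide 1 and guide 2 as a percentage of the control length, by zone, with the control at 100% as a dashed line and 1 library per group. The shared stretch, chromosome 15 and the gene-free stretches of other chromosomes lie between 53.7% and 63.5%, and the short arms lie at 46.9% with guide 1 and 18.05% with guide 2.

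Peaks on chromosomes 13, 14, 21 and 22 lay in parallel. For each pair of chromosomes and each list, the most frequent difference between peak starts was one and the same number of bases. The start on chromosome 13 minus the parallel start was -122275 bp for chromosome 14, 5135440 bp for chromosome 21 and 2996930 bp for chromosome 22. The offsets were found separately in each list and were equal in all 3. Between 34.2% and 48.8% of peaks with guide 1, 37.0% and 49.4% with guide 2, and 31.7% and 51.8% in the control had a partner start within 100 bp at that offset, over the 6 pairs. The same search between chromosome 15 and the other 4 matched 2.23% to 4.75% with guide 1, 1.40% to 4.82% with guide 2 and 3.57% to 4.67% in the control. Exact matches were few, 6 to 15 starts per pair with guide 1, 9 to 17 with guide 2 and 7 to 13 in the control.

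The same search was run elsewhere as a scale. Acrocentric windows against gene-free stretches of other chromosomes matched at most 6.43% with guide 1, 7.08% with guide 2 and 7.48% in the control. Among the other chromosomes, parallel positions were found in 3 pairs, those of chromosomes 1, 5 and 19, at 46.2% to 49.3% with guide 1, 44.1% to 46.5% with guide 2 and 45.8% to 48.1% in the control. Parallel peaks were thus not limited to the acrocentric chromosomes. The letters of these stretches were not analysed here, so their identity between chromosomes has no value, and peaks at parallel positions are not independent of each other.

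The parallel stretch was set at 2.05 Mb. It runs from 16000001 to 18050000 on chromosome 13 and from 16122276 to 18172275 on chromosome 14. Its place is 10864561 to 12914560 on chromosome 21 and 13003071 to 15053070 on chromosome 22. The length under peaks per chromosome was 396 to 414 kb with guide 1, 350 to 357 kb with guide 2 and 656 to 663 kb in the control. The ranges of the 3 libraries did not overlap, and each was narrower than its distance to the next. Of the stretch, 19.3% to 20.2% lay under peaks with guide 1, 17.1% to 17.4% with guide 2 and 32.0% to 32.3% in the control. The 4 chromosomes share each library, so these ranges show how even the copies were and are no replicate error.

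Along the stretch the 3 lists had high and low parts at similar places, for which no measure of likeness is given. In bins of 50 kb, averaged over the 4 chromosomes, each guide was below control in 41 of 41 bins. Guide 2 was below guide 1 in 32 bins and above it in 8. The share of control had a median over bins of 59.9% with guide 1 and 49.6% with guide 2. The highest bin lay 1375 kb into the stretch with guide 1 (42.2% of bases under peaks), at the same place with guide 2 (35.2%), and at 1325 kb in the control (49.1%). The first bin was nearly empty, at 0% with guide 1, 0% with guide 2 and 1.52% in the control.

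**Figure D3:**
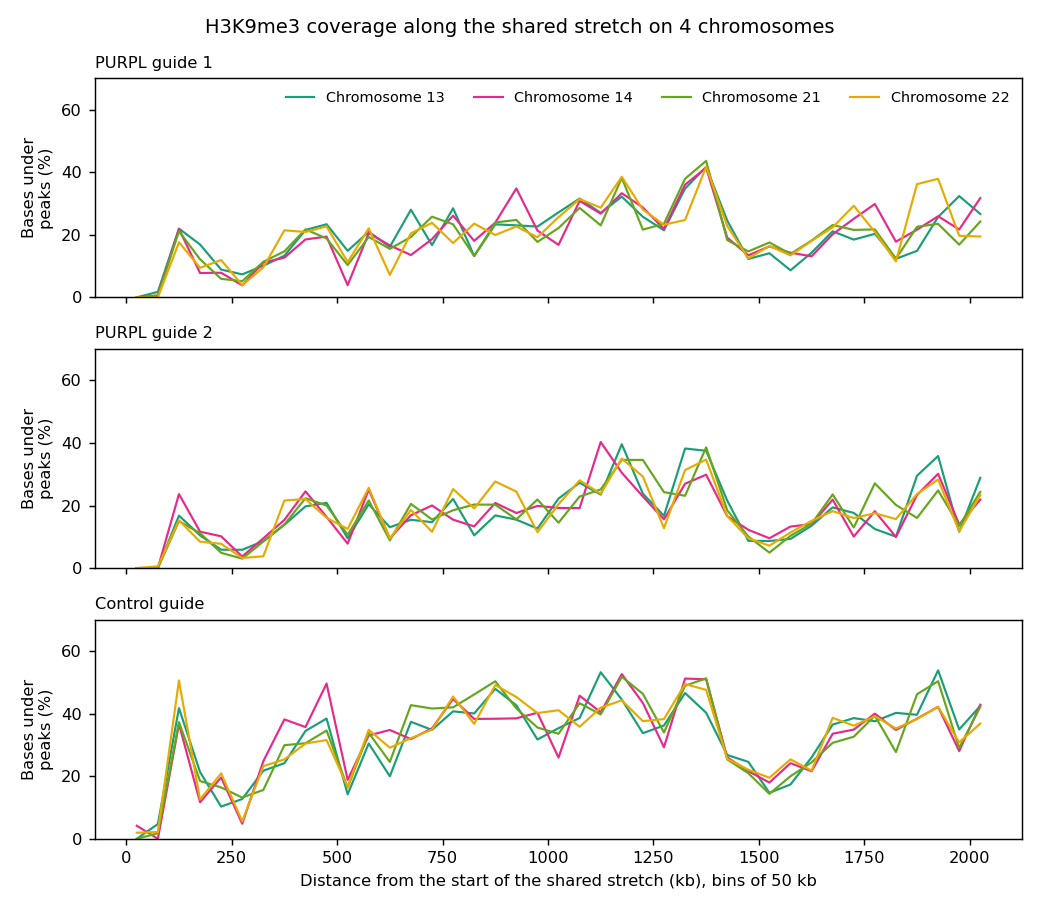
Bases under H3K9me3 peaks (%) in bins of 50 kb against distance from the start of the shared stretch (kb), 1 panel per library and 1 line per chromosome. The 4 lines have a similar course in each panel but differ in single bins. With guide 2 the bin at 1125 kb is at 23.5% on chromosome 13 and 40.3% on chromosome 14. The highest mean bin is at 42.2% with guide 1, 35.2% with guide 2 and 49.1% in the control.

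Overlap between the lists was set beside overlap between parallel chromosomes of one list. Within a list, the share of peaks overlapped at the parallel position of another chromosome was 75.3% to 83.2% with guide 1, 73.0% to 78.9% with guide 2 and 84.4% to 89.0% in the control. Control peaks were overlapped by guide 1 peaks in 68.5% to 73.2% of cases on their own chromosome and in 69.2% to 74.8% on another. With guide 2 these shares were 66.2% to 68.6% on their own chromosome and 64.5% to 69.3% on another. The match between libraries was thus about as frequent across chromosomes as on the same chromosome.

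By bases, 46.2% to 51.0% of the length under either of 2 chromosomes was under both with guide 1, 43.6% to 46.0% with guide 2 and 56.4% to 61.7% in the control. Between libraries on the same chromosome this share was 44.6% to 48.2% for guide 1 and control, 39.1% to 42.2% for guide 2 and control, and 40.3% to 43.3% for guide 1 and guide 2. This share and the share of peaks overlapped both depend on the length under peaks, which was greater in the control, so they do not rank the libraries by likeness.

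**Figure D4:**
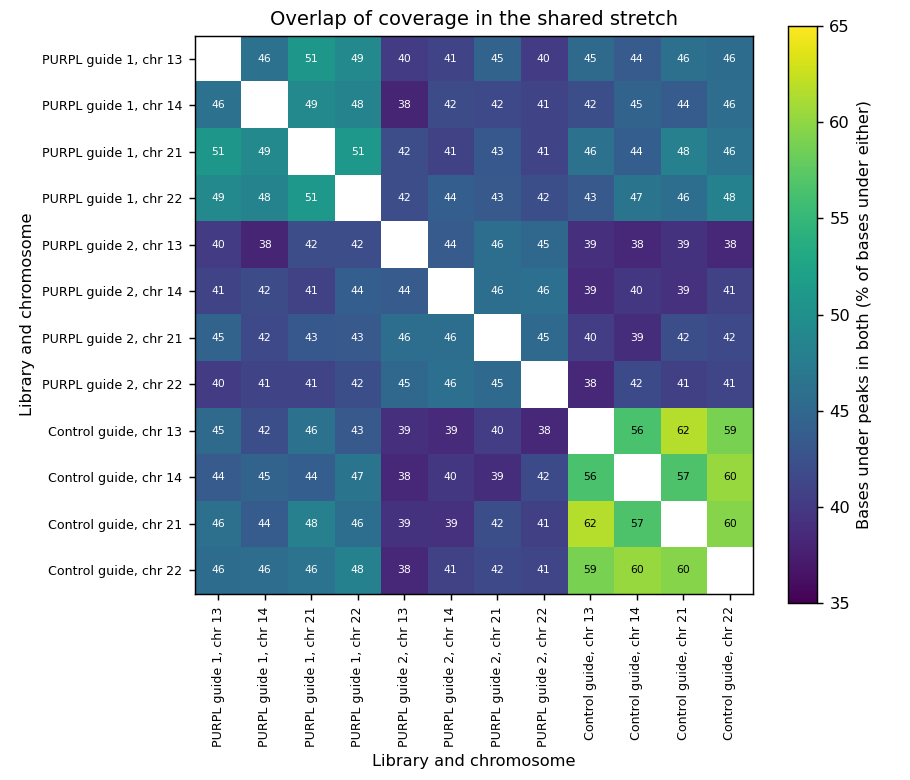
Share of bases under peaks in both of 2 chromosome copies, as a percentage of bases under either, for each library and chromosome (chr) of the shared stretch, with libraries and chromosomes on both axes and colour and printed number giving the share. Within a library the share is 46.2% to 51.0% for guide 1, 43.6% to 46.0% for guide 2 and 56.4% to 61.7% for the control, which also has the most length under peaks.

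Laid over one another, the 4 chromosomes covered 676 kb of the stretch with guide 1, 624 kb with guide 2 and 977 kb in the control, which is 69.2% of control with guide 1 and 63.8% with guide 2. The positions under peaks on all 4 chromosomes came to 177 kb with guide 1, 139 kb with guide 2 and 359 kb in the control, which is 49.3% of control with guide 1 and 38.6% with guide 2. Positions under a peak on 1 chromosome alone made up 30.9% of the covered positions with guide 1, 35.8% with guide 2 and 23.4% in the control. Lower coverage per chromosome by itself gives fewer positions covered on all 4, and no value for that alone was computed.

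Guide coverage followed the recurrence in the control. Of positions with no control peak on any of the 4 chromosomes, 4.55% were under a guide 1 peak on at least 1 of them and 4.99% under a guide 2 peak. Where the control had a peak on 1 chromosome, the share was 27.6% with guide 1 and 22.5% with guide 2. Where it had peaks on all 4, the share was 91.5% with guide 1 and 86.5% with guide 2. Of these same positions, 41.9% with guide 1 and 33.1% with guide 2 were under guide peaks on all 4. In the other direction, 99.4% of positions covered on all 4 chromosomes with guide 1, and 99.3% with guide 2, had a control peak on at least 1. Control peaks on all 4 lay over 84.9% of them with guide 1 and 85.8% with guide 2. Of the whole stretch, 47.7% had a control peak on at least 1 chromosome and 17.5% on all 4.

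**Figure D5:**
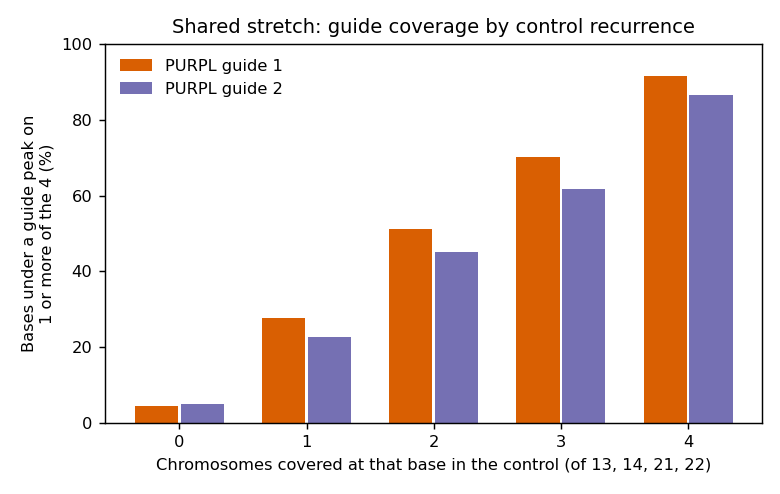
Bases of the shared stretch under a guide peak on at least 1 of chromosomes 13, 14, 21 and 22 (%), against the number of those chromosomes under a control peak at the same position, with 1 bar per guide library. The share goes up from 4.55% with guide 1 and 4.99% with guide 2 at 0 chromosomes to 91.5% with guide 1 and 86.5% with guide 2 at 4.

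Peaks without a counterpart on their own chromosome often had one at the parallel position of another, but less often than peaks in general. Of the 1770 control peaks in the stretch, 506 lacked a guide 1 peak on their own chromosome, and 317 of these (62.6%, 58.4 to 66.8) had one on another. For guide 2, 576 control peaks lacked one, and 321 of these (55.7%, 51.6 to 59.7) had one on another. Guide 1 had 134 peaks without a control peak on the same chromosome, and 108 of these (80.6%, 73.1 to 86.4) had a control peak on another. Guide 2 had 120 such peaks, and 95 of these (79.2%, 71.1 to 85.5) had a control peak on another. This left 26 guide 1 peaks and 25 guide 2 peaks with no control peak on any of the 4 chromosomes. The intervals here treat peaks as independent, which those of the parallel stretch are not. Of all control peaks in the stretch, 69.2% to 74.8% were overlapped by guide 1 peaks on 1 other chromosome, and 64.5% to 69.3% by guide 2 peaks. Of all guide peaks there, control peaks on 1 other chromosome overlapped 87.8% to 92.8% with guide 1 and 87.3% to 93.5% with guide 2. These shares count 1 given chromosome, while those of the peaks without a counterpart count any other of the 4. The share on any other is not given for all peaks, so the size of the gap is not measured. Control peaks on at least 1 chromosome covered 47.7% of the stretch, and the share from placement alone was not computed.

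The highest scores of the windows came from this stretch and recurred across lists. The top guide 1 peak, with a score of 250, lay on chromosome 21 at 12866301 to 12867352. The top guide 2 peak, with a score of 205, lay on chromosome 13 at 17239934 to 17241916. The top control peak, with a score of 367, lay on chromosome 22 at 14711124 to 14711568, and the next, with a score of 317, lay at the parallel place on chromosome 21, at 12572650 to 12573052. At each of these places all 3 lists had a peak on all 4 chromosomes. None of them overlapped an annotated gene.

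Some places differed between the lists on all copies, counted here against 1 shared control list. A control peak on chromosome 13 at 16428517 to 16428792, with a score of 82, recurred on all 4 chromosomes in the control and on 0 in either guide list. Control peaks on all 4 chromosomes covered 359 kb of the stretch. Of this, 13.5 kb in 69 runs lay under no peak of either guide on any of them. The longest run, of 968 bp, lay on chromosome 13 at 16842956 to 16843923. In the other direction, positions under peaks of both guides on all 4 chromosomes and under no control peak came to 212 bp in 1 run. Guide 1 peaks on all 4 covered 177 kb, of which 1.05 kb had no control peak on any chromosome. For guide 2 these lengths were 139 kb and 0.917 kb. The class of both guides needs 2 lists to have a peak on all 4 chromosomes, so the 212 bp and the 13.5 kb are not like counts. On single chromosomes, both guides had a peak where the control had none on chromosome 13 at 17361779 to 17362019 and at the parallel place on chromosome 14 at 17484059 to 17484296. There the guides had peaks on all 4 chromosomes and the control on 2. Positions under peaks on all 4 chromosomes in all 3 lists came to 82.8 kb in 156 runs. The longest of these, of 2579 bp, lay on chromosome 13 at 17413133 to 17415711.

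Chromosome 15 had wider peaks than the other windows and its peak starts matched theirs no more often than unrelated stretches did. Its median width was 1064 bp with guide 1, 1124 bp with guide 2 and 1903 bp in the control. The widest peak was 10.4 kb with guide 1, 8.34 kb with guide 2 and 16.4 kb in the control, the last at 18432417 to 18448832. Peaks of at least 10 kb numbered 1 with guide 1, 0 with guide 2 and 10 in the control. A single control peak often spanned several guide peaks: 76 of the 321 control peaks (23.7%) held at least 2 guide 1 peaks, against 6.50% of all control peaks, and 74 (23.1%) held at least 2 guide 2 peaks, against 5.98%. Wider peaks can hold more peaks, and the part of width in these shares was not tested. Of the chromosome 15 control peaks, 81.6% were overlapped by a guide 1 peak and 74.5% by a guide 2 peak. The highest score was 101 with guide 1 at 19131880 to 19133346, 77 with guide 2 at 19492614 to 19492948, and 121 in the control at 18669149 to 18669423. These peaks lay outside all annotated genes, and 0 of the 4 genes annotated in the window were under a peak of any list.

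Peaks on the short arms lay mainly on chromosomes 21 and 22. The first control peak began at 16.09 Mb on chromosome 13, 16.02 Mb on chromosome 14 and 17.00 Mb on chromosome 15. Whether the build holds sequence below these positions was not examined, so the lack of peaks there does not show absence of the mark. Outside the shared stretch, chromosome 21 held 148 kb with guide 1, 62.5 kb with guide 2 and 295 kb in the control, and chromosome 22 held 63.5 kb with guide 1, 19.9 kb with guide 2 and 160 kb in the control. A guide 1 peak overlapped 29.6% of the control peaks of the short arms and flanks, and a guide 2 peak 18.2%. In the shared stretch these shares were 71.4% with guide 1 and 67.5% with guide 2. In the whole control list they were 42.8% with guide 1 and 36.2% with guide 2. Among all other peaks, outside the windows and the gene-free stretches, they were lower than on the short arms, at 17.7% with guide 1 and 8.79% with guide 2. Scores were lower on the short arms, with a median at percentile 33.1 of the guide 1 list, 31.4 of the guide 2 list and 34.03 of the control list, while in the shared stretch it stood at 79.7 of the guide 1 list, 76.8 of the guide 2 list and 85.5 of the control list. In bins of 500 kb, the widest gap outside the shared stretch on these arms was at 10 to 10.5 Mb of chromosome 21, with 31.8 kb with guide 1, 8.85 kb with guide 2 and 77.3 kb in the control.

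Few members touched genes, and those that did lay mostly on the short arm of chromosome 21. The share of members that overlapped a gene was 2.10% with guide 1, 1.26% with guide 2 and 3.38% in the control. Over all peaks of each list it was 18.4% with guide 1, 11.6% with guide 2 and 27.9% in the control. Of the 190 annotated genes in the windows, 31 (16.3%) had a guide 1 peak, against 3.31% of all 58881 annotated genes. A guide 2 peak lay in 16 (8.42%), against 1.80%, and a control peak in 34 (17.9%), against 6.99%. The few genes of the windows were thus under a peak more often than genes overall in each list. On chromosome 21 these were 24 genes with guide 1, 13 with guide 2 and 22 in the control. Of the 44 genes with a guide 1 or a control peak, 27 had less length under peaks with guide 1 than in the control and 17 more, 10 of these with no control peak. Less length was thus found in 61.4%, against 84.9% of such genes overall. Of the 36 genes with a guide 2 or a control peak, 28 had less with guide 2 and 8 more, 2 of these with no control peak. That is 77.8% with less, against 92.3% of such genes in the whole annotation. With guide 2 the genes above control were FAM230C on chromosome 13 and, for the rest, genes of the ribosomal RNA block of chromosome 21, described below. With guide 1 they lay in that block and elsewhere. The 18S and 28S genes lie within the 45S genes there, so 1 peak can count for several genes. These shares thus do not come from independent genes.

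BAGE2, a pseudogene of the B melanoma antigen family (gene ID 85319, chromosome 21, 10413497 to 10518274), had the longest coverage, 11123 bp with guide 1, 4108 bp with guide 2 and 31768 bp in the control. Both guides were below control, at 35.01% with guide 1 and 12.9% with guide 2. LOC105372733, the gene whose promoter is printed above (9996066 to 10119490), had 1005 bp with guide 1, 929 bp with guide 2 and 14019 bp in the control. LOC101930100, a long non-coding RNA gene at 9325048 to 9369212, had 4424 bp with guide 1, 398 bp with guide 2 and 5037 bp in the control, so guide 1 was near control and guide 2 was not. On chromosome 22, LOC105379418, a long non-coding RNA gene at 10742092 to 10753062, had 1440 bp with guide 1, 656 bp with guide 2 and 6525 bp in the control. FRG1FP, a pseudogene of FRG1, the gene named for its place beside the facioscapulohumeral dystrophy region, had 541 bp with guide 1, 0 bp with guide 2 and 2089 bp in the control. On chromosome 14, the pseudogene ARHGAP42P5 had 1067 bp with guide 1, 0 bp with guide 2 and 1099 bp in the control, so guide 1 was close to control.

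Other genes were above control with at least 1 guide. TPTE, a gene for a testis transmembrane phosphatase, had 3025 bp under peaks with guide 1, 0 bp with guide 2 and 2607 bp in the control. CDC27P9, a pseudogene of the cell-cycle gene CDC27 (chromosome 21, 8239234 to 8243077), had 3037 bp with guide 1, 923 bp with guide 2 and 0 bp in the control. RNA18SP5, a pseudogene of the small-subunit ribosomal RNA at 8253842 to 8255704, had 334 bp with guide 1, 507 bp with guide 2 and 0 bp in the control. On chromosome 13, FAM230C, a long non-coding RNA gene, had 424 bp with guide 1, 701 bp with guide 2 and 394 bp in the control. Near-copies of such genes elsewhere could share their reads, so these lengths are uncertain.

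The ribosomal RNA genes of chromosome 21 lay in the 1 of 42 bins of 500 kb with more length under peaks than control with both guides, 8 to 8.5 Mb, at 136% with guide 1 and 103% with guide 2. Their annotated block, from 8155988 to 8496572 with 50 kb on each side, held 23 peaks and 26.3 kb with guide 1, 21 peaks and 21.3 kb with guide 2, and 19 peaks and 17.5 kb in the control, which is 150% of control with guide 1 and 121% with guide 2. The genes for the 45S precursor, which is cut into the ribosomal RNAs, are annotated in 3 copies here. RNA45SN2 had 298 bp under peaks with guide 1, 1613 bp with guide 2 and 975 bp in the control. RNA45SN3 had 273 bp with guide 1, 2553 bp with guide 2 and 1932 bp in the control. RNA45SN1 had 1682 bp with guide 1, 1118 bp with guide 2 and 1123 bp in the control. Guide 1 was below control in 2 of the 3 copies and guide 2 was above it in the same 2. The 18S genes, for the small-subunit RNA, had a peak on 1 of 3 copies with guide 1, 3 with guide 2 and 3 in the control, and the 28S genes, for the large-subunit RNA, on 3 with guide 1, 1 with guide 2 and 2 in the control. The genes for the 5.8S RNA had 0 bp in all 3 lists. Scores of the peaks in the 45S genes were low, from 12 to 52, and reads from such repeated genes may have several equal places.

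Other families of these arms were mostly bare, as were most genes of the windows. Of all 190 genes there, 16.3% had a peak with guide 1, 8.42% with guide 2 and 17.9% in the control. Whether a family at 0 bp stands apart from these shares was not tested. The windows hold 9 microRNA genes, 3 IGHV orphon segments (copies of antibody heavy-chain segments) and 1 olfactory receptor gene of the families searched, all with 0 bp under peaks in the 3 lists. The 7 DUX4L genes, repeats related to DUX4, also had 0 bp. No gene listed under a POTE, DUXAP, GOLGA6, GOLGA8 or CHEK2P symbol or synonym lay in the windows. The 9 short-arm copies of genes of the long arm of chromosome 21 that matched by synonym, such as CBSL, CRYAA2 and U2AF1L5, had 0 bp under peaks in the 3 lists. Reads from such copies may have several equal places, so these values are uncertain. The 6 CDC27 pseudogenes had 4686 bp with guide 1, 1595 bp with guide 2 and 1452 bp in the control in all.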

How the data were processed

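H3K9me3 ChIP-seq of 3 BJ cell lines gave 3 deposited peak lists, 1 per line, each named as H3K9me3 against the input of the same line, so peaks were called per sample. Per the submitters' processing notes the tools named, with no roles, include deepTools (3.5.1), MACS2 (2.2.9.1), GATK and Bowtie2 (2.4.2), and the builds named are GRCh38.p13 and hg38. The labels do not state read numbers, settings of the peak caller or the handling of reads with several equal places. Depth is therefore unknown. The deposited score is the authors' own whole number per peak, at least 10, on a scale not named in the sources used here. Because guide names within the peak names differ from those in the labels, lists were assigned by the labels.

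Members were peaks with their midpoint in the windows. The members and lists were chosen with earlier results of these data known, and the shared stretch, the CDC27 and the DUX4L lists after seeing the values reported here. Gene positions came from a RefSeq table (GRCh38.p14) with start and end only, so exons and introns were not used. Entries of acrocentric chromosomes starting below 5 Mb were left out, because they belong to other sequences listed under the same chromosome. Length is bases under peaks, and overlap means at least 1 bp. Offsets were the most frequent difference between peak starts. Intervals at 95% are Wilson intervals for shares, and for a ratio of peak numbers the Wilson interval of one list's share of the peaks of both lists, turned into a ratio. Both kinds treat peaks as independent. With 1 library per group no test was run. Peaks named were, per list and window, the highest-scoring and widest, the top 3 per list, the top control peak without a guide peak and the top region of both guides without a control peak. Genes named were, per window, up to 3 with the longest control coverage, up to 2 with both guides and no control, and members of the families listed. TPTE and the ribosomal RNA genes come from these families. Of these, those the results turn on are printed. Alternatives were score, overlap, merging, gene-free and copy choices. Overlap and offset methods were tested on simulated data. The software was Python (3.11.15) with pandas (2.3.3), numpy (2.4.6), matplotlib (3.10.9) and scipy (1.17.1).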

Additional observations from a re-analysis of the deposited data

Results flagged for a closer look

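The 45S ribosomal RNA genes of chromosome 21 stood on opposite sides of the control with the guides. Their summed length under peaks was 2253 bp with guide 1 and 5284 bp with guide 2, against 4030 bp in the control, so the sum was below control with guide 1 and above it with guide 2. RNA45SN1 did not share this, at 1682 bp with guide 1, 1118 bp with guide 2 and 1123 bp in the control. The 28S genes, which lie within these genes, stood at 109% of control with guide 1 and 80.6% with guide 2, and the block around them at 150% with guide 1 and 121% with guide 2. With 1 library per group the difference was not tested, and it rests on 14 peaks over the 3 lists.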

How the results depend on the processing

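The reported median length left over the windows was 60.9% of control with guide 1 and 52.1% with guide 2, and guide 2 length was 84.5% of guide 1. With peaks at or above the median score of the pooled lists (22), the values were length left (of control) 53.5% with guide 1 and 46.1% with guide 2, peak number (of control) 80.3% with guide 1 and 72.7% with guide 2, median length left over the windows 54.4% with guide 1 and 45.7% with guide 2, control peaks overlapped 63.1% with guide 1 and 56.8% with guide 2, guide peaks without control 13.7% with guide 1 and 13.7% with guide 2, and guide 2 length 86.2% of guide 1. Within gene-free stretches of the windows, the values were length left (of control) 61.7% with guide 1 and 54.6% with guide 2, peak number (of control) 90% with guide 1 and 84.4% with guide 2, median length left over the windows 62.5% with guide 1 and 54% with guide 2, control peaks overlapped 71.9% with guide 1 and 67.5% with guide 2, guide peaks without control 8.8% with guide 1 and 8.22% with guide 2, and guide 2 length 88.6% of guide 1. With peaks within 5000 bp merged, the values were length left (of control) 71.6% with guide 1 and 63% with guide 2, peak number (of control) 134% with guide 1 and 128% with guide 2, median length left over the windows 69.7% with guide 1 and 63.9% with guide 2, and guide 2 length 88% of guide 1. With 50% of the peak required to be covered, the values were control peaks overlapped 43.3% with guide 1 and 35.7% with guide 2, and guide peaks without control 21.4% with guide 1 and 19% with guide 2. With a peak within 5000 bp counted as shared, the values were control peaks overlapped 92% with guide 1 and 86.6% with guide 2, and guide peaks without control 1.16% with guide 1 and 0.523% with guide 2. Without the shared stretch (chosen after seeing the data), the values were length left (of control) 57.8% with guide 1 and 45.5% with guide 2, peak number (of control) 84.1% with guide 1 and 64.1% with guide 2, control peaks overlapped 52.1% with guide 1 and 42.5% with guide 2, guide peaks without control 21.6% with guide 1 and 14.1% with guide 2, and guide 2 length 78.8% of guide 1. With chromosome 13 standing for the 4 parallel chromosomes (chosen after seeing the data), the values were length left (of control) 59.3% with guide 1 and 48.3% with guide 2, peak number (of control) 84.4% with guide 1 and 70.1% with guide 2, control peaks overlapped 59.2% with guide 1 and 51.4% with guide 2, guide peaks without control 16.8% with guide 1 and 12.3% with guide 2, and guide 2 length 81.4% of guide 1. Parallel starts at equal starts for chromosome 13 on 21 were 3.96% with guide 1, 4.47% with guide 2 and 2.9% in the control, and for chromosome 14 on 22 2.23% with guide 1, 4.3% with guide 2 and 2.35% in the control. Parallel starts within 10 bp for chromosome 13 on 21 were 16.4% with guide 1, 15.1% with guide 2 and 15.2% in the control, and for chromosome 14 on 22 15.8% with guide 1, 17.5% with guide 2 and 15.4% in the control. Parallel starts within 100 bp for chromosome 13 on 21 were 48.8% with guide 1, 49.4% with guide 2 and 51.8% in the control, and for chromosome 14 on 22 47.3% with guide 1, 43% with guide 2 and 47.1% in the control. At least 5% of the gene body required left 20 genes with guide 1, 11 with guide 2 and 24 in the control. Shares and peak numbers were counted as moved when outside the 95% interval of the reported value, lengths when they differed at 2 significant digits, and counts of genes when they differed by over 1.5 times. By these limits 61 alternative values moved, 13 did not, and 2 turned the other way, both peak numbers under merging. The intervals used for these calls treat peaks as independent and may be too narrow. The length left stayed below 100% in each alternative that gives it. No paired analysis was possible because each group has 1 library and no result comes from a test. Library depth, which limits how many peaks each list could hold, is unknown, and reads of identical copies cannot be placed. The cause of each shift was not tested.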
